A study of Homo sapiens with 24 samples.

Results

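The genes described here are 46 members of the response to low oxygen and of glycolysis, out of 58721 gene IDs counted in a series on the zinc finger transcription factor ZFX. They were taken by symbol: each listed symbol was matched to its Ensembl ID in GENCODE 29 on GRCh38, and all 46 were found. They fall into 6 regulators of hypoxia-inducible factor (HIF), 5 secreted or surface products of HIF target genes, 9 intracellular products of HIF target genes, 4 glucose and lactate transporters, 17 glycolytic enzymes, 3 PFKFB enzymes and 2 pyruvate dehydrogenase kinases. RNA-seq was done on 24 libraries in 8 groups of 3. In LN-229, an established glioblastoma line labelled wild type, cells were treated with siRNA to knock down ZFX (siZFX) or ZNF593, another zinc finger protein (siZNF593), with both siRNAs together (siZFX siZNF593, called the double knockdown here), or with a control siRNA in 2 sets (siControl and siControl_2). Both control sets share a treatment label, and the deposited names tie siControl_2 to the double knockdown. In 293T, a human embryonic kidney line, all 9 libraries came from cells in which ZFX and its paralog ZNF711 were knocked out (DKO cells), and these cells received FLAG-tagged wild-type ZFX (wtZFX), a FLAG-tagged ZFX construct named ZFX12_13 that the labels do not explain further, or the empty pCMV6 vector. The labels give no time after transfection, no clone number for the DKO cells and no oxygen level. The 3 libraries of a group are called biological replicates without mention of separate cultures, so p-values measure the spread between these libraries, which may be technical.

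HIF is a pair of proteins, an oxygen-sensitive alpha subunit (HIF1A, or EPAS1, also known as HIF-2 alpha) and the stable beta subunit ARNT. In oxygen, prolyl hydroxylases such as EGLN1 and EGLN3 mark the alpha subunit, and the VHL ubiquitin ligase sends it to the proteasome, so HIF activity is set largely at the protein level, which RNA counts do not show. When oxygen is low, HIF turns on genes for glucose uptake, for nearly every step of glycolysis, for lactate export, for vessel growth and for the removal of mitochondria. Glioblastoma cells, like many tumour cells, are known for high glycolysis even when oxygen is present.

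Libraries held 16223239 to 30159260 reads counted on genes. Levels are given in CPM, the reads of a gene scaled to a common number of reads counted on genes, with TMM factors within each cell line. ZFX stood at 15.7 ± 3.58 CPM with siZFX and 27.5 ± 2.48 CPM with the double knockdown, against 49.6 ± 4.22 CPM in siControl and 52.0 ± 4.89 CPM in siControl_2 (SD, n = 3 each, over plain library totals as for the other targeted genes). Reads on ZNF593, taken from both stranded columns because it lies under a gene on the other strand, were 2.34 ± 0.689 CPM with siZNF593 and 3.21 ± 0.480 CPM with the double knockdown, against 34.0 ± 2.58 CPM in siControl and 34.9 ± 3.18 CPM in siControl_2. In DKO cells ZFX had 15430.1 ± 1202 CPM with wtZFX and 18637 ± 3034 CPM with ZFX12_13, against 227 ± 10.8 CPM with pCMV6, and reads from the constructs are counted on ZFX. ZNF711 was counted at 260.8 ± 13.6 CPM with wtZFX and 253 ± 5.94 CPM with ZFX12_13, against 310.2 ± 5.36 CPM with pCMV6, so transcripts of both genes were present in the knockout cells and RNA levels do not check the knockout. In the double knockdown, replicate 3 differed from the rest of its group in several members, and results that rest on it are given with and without it. All 7 LN-229 markers (VIM, CD44, AXL, SOX10, CSPG4, TNC and EGFR) were above 1 CPM in every LN-229 group, and they summed to 5078 to 5182 CPM with siZFX, 4417 to 4796 CPM with siZNF593 and 4410.3 to 4688 CPM with the double knockdown, against 6187 to 6366 CPM in siControl and 6625 to 6843 CPM in siControl_2. The markers did not move as 1: with siZFX, against siControl, SOX10 averaged 683 against 1275.5 CPM and CSPG4 72.0 against 300.8 CPM, while CD44 averaged 894 against 814.5 CPM and VIM 1280.1 against 1237.5 CPM. In bulk RNA, fewer cells of a type and less RNA per cell cannot be told apart, and the part of these differences in the results below was not tested. Markers of microglia, endothelium and neurons summed to at most 3.69 CPM in LN-229, with CD68 and AIF1 under 0.1 CPM. Of the 7 LN-229 markers, 6 were also above 1 CPM in every DKO group, where the 7 summed to 298.3 to 319 CPM. Of 6 markers of 293T, 5 were above 1 CPM in every DKO group, and TFAP2B was under 0.1 CPM.

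The level of the members ranged widely. Per kilobase of exon, which allows genes to be compared, the highest in LN-229 siControl were GAPDH at 1128 ± 31.8, PKM at 507 ± 18.4, ENO1 at 429 ± 23.3, TPI1 at 341 ± 22.7 and LDHA at 244 ± 13.5 CPM per kb. All but TPI1 are enzymes of the lower part of glycolysis, and PKM and LDHA make its last steps, to pyruvate and to lactate. Neighbours among these 5 differed by more than the sum of their SDs. In DKO cells with pCMV6 the same scale gave GAPDH 454 ± 6.16, ENO1 427 ± 4.43, TPI1 313 ± 1.11, LDHA 243.5 ± 2.78 and PGK1 206 ± 2.60 CPM per kb, and PKM came after PGAM1 at 144 ± 2.52. CA9, a surface carbonic anhydrase that is widely used as a marker of hypoxia, was the lowest member per kilobase in both lines, at 0.0915 ± 0.0604 CPM per kb in siControl and 0.0767 ± 0.0443 CPM per kb in pCMV6. CA9 was not tested in either line because of its low counts, so 45 of the 46 members were tested in each.

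Some members are counted with doubt. Of the 46, 35 overlap another annotated gene, and 7 share over 10% of their exon bases with one. ALDOA, the main muscle-type aldolase, shares 53.5% of its exon bases with AC093512.1 and AC093512.2, and it was listed at 0.506 ± 0.224 CPM per kb in siControl. LDHB, the other lactate dehydrogenase subunit, shares 33.4% with AC010197.1 and AC010197.2 and was listed at 0.958 ± 0.113 CPM per kb. Reads on more than 1 gene are left out of this layout, so these values do not give the level of either enzyme. CA9, ANKRD37, DDIT4, ALDOC and GAPDH had over 1.5 times as many reads in the stranded columns summed as in the unstranded column, and for them the changes from both columns are given where they carry a result. GAPDH has 62 named pseudogenes, BNIP3 39 and PGAM1 13.

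**Figure D1:**
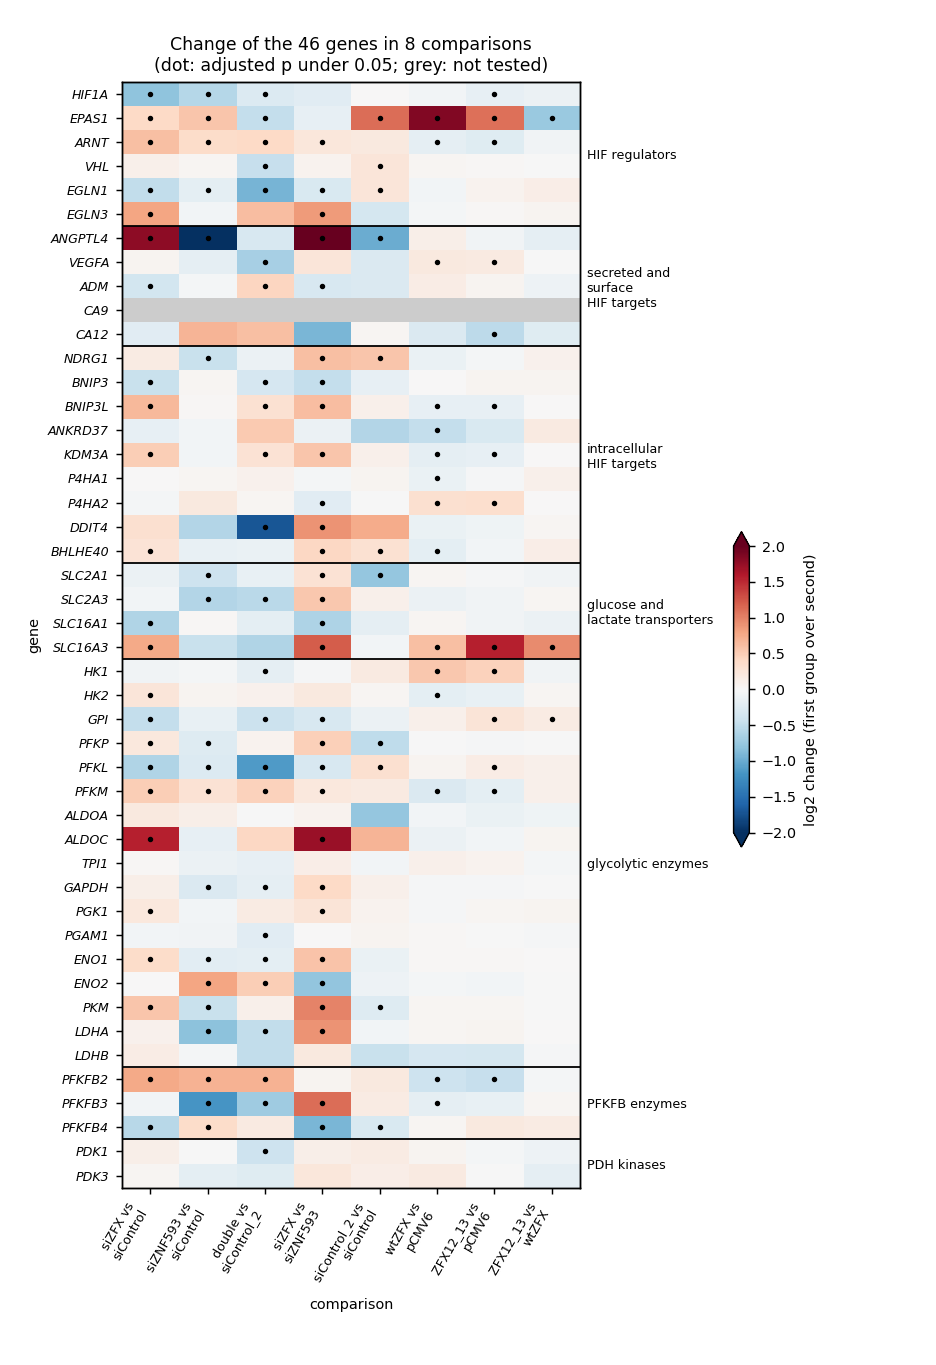
Each row is a gene, grouped by role, and each column a comparison, with the colour giving the log2 change of the first group over the second from edgeR and a dot marking an adjusted p under 0.05. ANGPTL4 is at 1.79 with siZFX and -2.35 with siZNF593, and EPAS1 and SLC16A3 stand out in the DKO columns at 1.84 and 0.61 with wtZFX and 1.11 and 1.55 with ZFX12_13.

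ANGPTL4 (ENSG00000167772.11, chromosome 19, 8363289 to 8374373 on the plus strand) encodes a secreted inhibitor of lipoprotein lipase that HIF and the fatty acid receptors of the PPAR family are known to turn on. It had 21.7, 19.4 and 16.2 CPM in the siZFX libraries and 0.902, 0.879 and 1.5 CPM in the siZNF593 libraries, against 5.77, 5.6 and 5.22 CPM in the siControl libraries. The siZFX libraries lay above all control libraries and the siZNF593 libraries below them, with no overlap. The read counts behind the siZNF593 values were 18, 17 and 26. ANGPTL4 rose 3.45-fold with siZFX (log2 1.79, SE 0.20, adjusted p = 2.19e-07) and fell 5.09-fold with siZNF593 (log2 -2.35, SE 0.25, adjusted p = 1.85e-07), with edgeR's quasi-likelihood test and Benjamini-Hochberg adjustment over all tested genes, as for every adjusted p here. No library left out changed either call. ANGPTL4 was listed with its opposite changes in these data known, so these values describe it and are not separate support for the pattern. The overlap of ANGPTL4 with RAB11B-AS1 on the other strand covers 0.0403% of its exon bases. With the double knockdown it had 2.35, 2.65 and 1.65 CPM, against 3.60, 2.41 and 2.30 CPM in siControl_2 and the siControl values above. That change depended on the control set: log2 -0.32 (SE 0.23) against siControl_2, with an adjusted p of 0.293, and log2 -1.32 (SE 0.22) against siControl, with an adjusted p of 3.89e-05.

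The promoter of ANGPTL4 is shown because this gene moved in opposite directions with the 2 siRNAs, and windows of SLC16A3 and HK1 because they hold AGGCCT and their genes rose with both ZFX constructs. They were picked for that motif, and EPAS1, which rose most with wtZFX, has 1 window, without it. The BNIP3 window, which also holds AGGCCT, is not printed. BNIP3 passed with neither construct, at 207.5 CPM with wtZFX and 215 CPM with ZFX12_13, against 206.3 CPM with pCMV6. ANGPTL4 passed with neither construct as well. With siZFX, ANGPTL4 and SLC16A3 rose, BNIP3 fell and HK1 did not pass. The windows run from 250 bases before to 50 after a RefSeq start on GRCh38.p14 and are written 5′ to 3′ along the gene. Capitals mark the HIF core motifs ACGTG and GCGTG and the ZFX core AGGCCT on either strand, so CACGT and CACGC are the reverse complements of the HIF cores.
ANGPTL4, chr19:8363905-8364204, plus strand: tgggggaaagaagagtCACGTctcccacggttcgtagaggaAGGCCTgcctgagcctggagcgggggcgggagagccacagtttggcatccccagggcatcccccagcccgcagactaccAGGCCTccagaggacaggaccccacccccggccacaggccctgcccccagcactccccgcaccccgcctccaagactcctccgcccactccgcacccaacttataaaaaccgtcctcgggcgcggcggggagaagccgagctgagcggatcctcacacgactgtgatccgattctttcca
SLC16A3, chr17:82234649-82234948, plus strand: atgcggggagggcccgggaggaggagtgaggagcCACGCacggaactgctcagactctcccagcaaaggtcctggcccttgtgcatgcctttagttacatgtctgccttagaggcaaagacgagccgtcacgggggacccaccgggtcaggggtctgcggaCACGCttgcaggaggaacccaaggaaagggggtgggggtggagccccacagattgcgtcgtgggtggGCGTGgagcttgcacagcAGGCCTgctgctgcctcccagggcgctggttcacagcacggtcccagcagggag
HK1, chr10:69334364-69334663, plus strand: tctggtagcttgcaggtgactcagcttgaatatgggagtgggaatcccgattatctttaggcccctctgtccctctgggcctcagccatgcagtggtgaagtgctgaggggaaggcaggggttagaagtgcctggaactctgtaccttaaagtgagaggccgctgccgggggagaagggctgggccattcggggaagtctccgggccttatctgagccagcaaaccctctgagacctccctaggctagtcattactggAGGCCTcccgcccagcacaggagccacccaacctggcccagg
The ANGPTL4 window holds AGGCCT with its first base 209 and 130 bases before the start and a HIF core 234 bases before it. This SLC16A3 window, 1 of 5, holds AGGCCT beginning 4 bases before the start and 3 GCGTG matches, and this HK1 window, 1 of 7, holds AGGCCT beginning 8 bases after the start and no HIF core. Of the 7 HK1 windows 2 hold GCGTG, and of the 5 SLC16A3 windows 1 holds ACGTG.

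Across members, 67 RefSeq windows matched 39 of the 46 symbols. ACGTG was in 40.3% of these windows, against 21.4% of all 35116 windows, and GCGTG was in 41.8%, against 36.5%. AGGCCT was in 5.97% of the members' windows, against 10.9% of all, and the members with it were ANGPTL4, BNIP3, HK1 and SLC16A3. A match is a stretch of letters, not a bound site, and CACGTG and AGGCCT each read the same on both strands.

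With siZFX, 24 of the 45 tested members passed the test, 16 higher and 8 lower, which is 53.3% of them beside 30.9% of all 17684 tested genes (13.8% higher and 17.1% lower). Their median log2 change was 0.10, beside 0.02 for all genes. The members that rose were led by ANGPTL4 and ALDOC, and they included the pyruvate kinase PKM, the lactate exporter SLC16A3 and the mitophagy receptor BNIP3L. HIF1A itself fell.

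Of the 6 HIF regulators, 5 changed with siZFX. HIF1A had 265, 293 and 282 CPM with siZFX, against 485.5, 508 and 477 CPM in siControl. Every siZFX library was below every control library, and the fall was 1.75-fold (log2 -0.81, SE 0.09, adjusted p = 1.15e-06). The hydroxylase EGLN1 also fell (log2 -0.49, SE 0.07, adjusted p = 7.42e-06). The partner subunit ARNT rose, with 60.7, 65.7 and 70.8 CPM with siZFX, against 44.5, 44.4 and 41.6 CPM in siControl (log2 0.60, SE 0.08, adjusted p = 2.72e-06). EPAS1 rose by less (log2 0.39, adjusted p = 0.0231) and lost its call without replicate 2 of siZFX and without replicate 2 or 3 of siControl. It averaged 13.36 CPM with siZFX, which is above siControl (10.17 CPM) but below siControl_2 (22.03 CPM). EGLN3 passed at log2 0.79 (adjusted p = 0.0418) on levels of 3.81 ± 1.14 CPM with siZFX against 2.21 ± 0.538 CPM in siControl, and lost its call in 4 of its 6 left-out fits: without replicate 1 or 2 of siZFX and without replicate 1 or 2 of siControl. Without replicate 1 of siZFX its change was 0.52. VHL was at log2 0.10 and did not pass.

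The HIF target products moved in both directions with siZFX. BNIP3L (log2 0.64, SE 0.09, adjusted p = 4.55e-06), the histone demethylase KDM3A (log2 0.50, SE 0.08, adjusted p = 2.88e-05) and the transcription repressor BHLHE40 (log2 0.27, SE 0.08, adjusted p = 0.0164) rose. The BNIP3L paralog BNIP3 (log2 -0.44, SE 0.08, adjusted p = 0.000171) and the vasoactive peptide ADM (log2 -0.37, SE 0.10, adjusted p = 0.00508) fell. VEGFA, the vessel growth factor that is a standard HIF target, had 51.0, 47.3 and 50.1 CPM with siZFX, against 46.8, 46.5 and 49.6 CPM in siControl. These libraries overlapped, and VEGFA did not pass (log2 0.06, adjusted p = 0.748). NDRG1 (log2 0.16), ANKRD37 (-0.16), P4HA1 (0.00), P4HA2 (-0.03), DDIT4 (0.32) and CA12 (-0.23) did not pass either. The call of BHLHE40 was lost without replicate 2 of siZFX and without replicate 2 or 3 of siControl. BHLHE40 averaged 108.8 CPM with siZFX, against 90.45 CPM in siControl and 111.2 CPM in siControl_2.

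Among the transporters, SLC16A3 (MCT4, which exports lactate and is a known HIF target) had 111, 112.5 and 107 CPM with siZFX, against 60.8, 64.2 and 69.8 CPM in siControl. SLC16A1 (MCT1, the more general lactate and pyruvate carrier) had 75.3, 76.9 and 74.9 CPM with siZFX, against 116, 123 and 105 CPM in siControl. The 2 carriers therefore moved in opposite directions, with no overlap of libraries in either. SLC16A3 rose 1.70-fold (log2 0.77, SE 0.26, adjusted p = 0.0431) and SLC16A1 fell 1.52-fold (log2 -0.60, SE 0.10, adjusted p = 8.37e-05). The call for SLC16A3 was lost when any of the 6 siZFX and siControl libraries was left out (adjusted p 0.0735 to 0.119), while without replicate 3 of the double knockdown, in which SLC16A3 was 21.4 CPM beside 50.9 and 52.1 CPM in its group, its change was 0.76 with an SE of 0.08 and an adjusted p of 3.38e-10. The glucose importers SLC2A1 (log2 -0.12) and SLC2A3 (-0.05) did not pass.

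Of the 17 glycolytic enzymes, 7 rose and 2 fell with siZFX. PKM had 6282, 6591 and 6213 CPM with siZFX, against 4418, 4454 and 4164 CPM in siControl, a rise of 1.46-fold (log2 0.55, SE 0.05, adjusted p = 4.85e-08). ENO1, the enolase that makes the substrate of PKM, rose by log2 0.36 (SE 0.06, adjusted p = 0.000139). The 17 enzymes together summed to 17151, 17429 and 16846 CPM with siZFX, against 14249, 14535 and 13446 CPM in siControl, with no overlap. Most of that difference lies in PKM, at a mean of 6362 against 4345.5 CPM, and ENO1, at 2907 against 2266 CPM. The sum therefore does not show that the enzymes rose together. The aldolase ALDOC, known from brain, had 6.60, 7.96 and 4.68 CPM with siZFX, against 1.93, 1.82 and 2.80 CPM in siControl (log2 1.56, SE 0.26, adjusted p = 5.56e-05), and log2 1.44 from both stranded columns. The 3 phosphofructokinase subunits, which make up the committed step, did not move together: the muscle type PFKM rose (log2 0.50, SE 0.07) and the platelet type PFKP rose by 0.21 (SE 0.07), and the liver type PFKL fell (log2 -0.60, SE 0.09, adjusted p = 1.5e-05). GPI, which makes fructose 6-phosphate for them, fell by 0.47 on the log2 scale (SE 0.08). HK2 (log2 0.25), PFKP and PGK1 (log2 0.20) lost their calls in 4 or 5 of the 6 left-out fits, each of them without replicate 1 or 3 of siControl and without replicate 2 of siZFX. LDHA (log2 0.08), GAPDH (0.11), TPI1 (0.02), PGAM1 (-0.06), HK1 (-0.07) and ENO2 (0.00) did not pass, nor did ALDOA and LDHB.

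The PFKFB enzymes make and break fructose 2,6-bisphosphate, the strongest activator of phosphofructokinase. PFKFB2, the heart type, had 26.2, 24.7 and 27.7 CPM with siZFX, against 15.9, 15.5 and 15.3 CPM in siControl (log2 0.75, SE 0.11, adjusted p = 1.39e-05). PFKFB4 had 27.7, 30.2 and 33.1 CPM with siZFX, against 46.6, 41.0 and 45.7 CPM in siControl (log2 -0.55, SE 0.10, adjusted p = 0.000142). The libraries did not overlap in either gene. PFKFB3, a HIF target with the highest kinase activity of the family, did not pass (log2 -0.06, adjusted p = 0.605). PDK1 (log2 0.12) and PDK3 (0.04), kinases that shut off pyruvate dehydrogenase, did not pass.

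With siZNF593, 19 of 45 members passed, 6 higher and 13 lower, which is 42.2% of them beside 26.8% of all tested genes (12.2% higher and 14.6% lower). The median over the members was -0.06, beside 0.02 for all genes. With upper-quartile scaling the split was 7 higher and 11 lower, beside 2648 higher and 2138 lower of all tested genes. The falls against siControl were led by ANGPTL4 and PFKFB3 and took in both glucose importers and 6 glycolytic enzymes.

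PFKFB3 had 77.8, 72.9 and 82.8 CPM with siZNF593, against 175, 174 and 177 CPM in siControl, a fall of 2.25-fold (log2 -1.17, SE 0.08, adjusted p = 5.79e-11). LDHA had 796.5, 931 and 839 CPM with siZNF593, against 1518, 1597 and 1430.1 CPM in siControl (log2 -0.82, SE 0.07, adjusted p = 8.64e-09). In both genes the siZNF593 libraries lay far below the control libraries. PKM fell 1.36-fold, with 3188, 3172 and 3229 CPM with siZNF593 against the control values above (log2 -0.44, SE 0.05, adjusted p = 1.45e-06). GAPDH (log2 -0.29, SE 0.06, and -0.28 from both stranded columns), PFKL (-0.28, SE 0.09), PFKP (-0.26, SE 0.07) and ENO1 (-0.21, SE 0.06) fell by less. PFKP averaged 183.4 CPM with siZNF593, which is below siControl (219.6 CPM) but above siControl_2 (154.6 CPM). ENO2, the neuronal enolase, went the other way: it had 68.9, 59.6 and 65.9 CPM with siZNF593, against 38.4, 37.8 and 36.6 CPM in siControl (log2 0.78, SE 0.09, adjusted p = 3.98e-07). PFKM also rose (log2 0.29, SE 0.07). The 17 enzymes summed to 11016, 11418 and 11199 CPM with siZNF593, below each of the siControl sums given above. Most of that difference lies in the abundant PKM, LDHA, GAPDH and ENO1. The PFKL call was lost without replicate 2 of siZNF593 and without replicate 1 of siControl, and the ENO1 call without replicate 2 of siControl.

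The glucose importers SLC2A3 (GLUT3, log2 -0.59, SE 0.08, adjusted p = 1.08e-05) and SLC2A1 (GLUT1, log2 -0.41, SE 0.11, adjusted p = 0.00713) fell with siZNF593. SLC2A1 averaged 203.3 CPM with siZNF593, which is below siControl (270.8 CPM) but above siControl_2 (159.2 CPM). The lactate carriers did not pass, at log2 0.02 for SLC16A1 and -0.44 for SLC16A3 (adjusted p = 0.254). Of the HIF regulators, HIF1A had 296, 360.3 and 332 CPM with siZNF593, below all siControl libraries (log2 -0.57, SE 0.09, adjusted p = 9.54e-05), and EGLN1 fell by 0.19 on the log2 scale (adjusted p = 0.0437), a call lost in 4 of 6 left-out fits (without replicate 1 or 3 of siZNF593, or replicate 1 or 2 of siControl). EPAS1 (log2 0.55, SE 0.13, adjusted p = 0.00237) and ARNT (log2 0.37, SE 0.08, adjusted p = 0.000955) rose. EPAS1 averaged 14.95 CPM with siZNF593, which is above siControl (10.17 CPM) but below siControl_2 (22.03 CPM). Of the 9 intracellular target products only the stress protein NDRG1 passed (log2 -0.44, SE 0.07, adjusted p = 6.67e-05). DDIT4 did not pass (log2 -0.58, adjusted p = 0.194), but did from both stranded columns (log2 -0.59, adjusted p = 0.0134). PFKFB2 rose (log2 0.70, SE 0.11, adjusted p = 4.9e-05), and so did PFKFB4 (log2 0.36, SE 0.10, adjusted p = 0.00746), though not without replicate 2 of siControl.

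**Figure D2:**
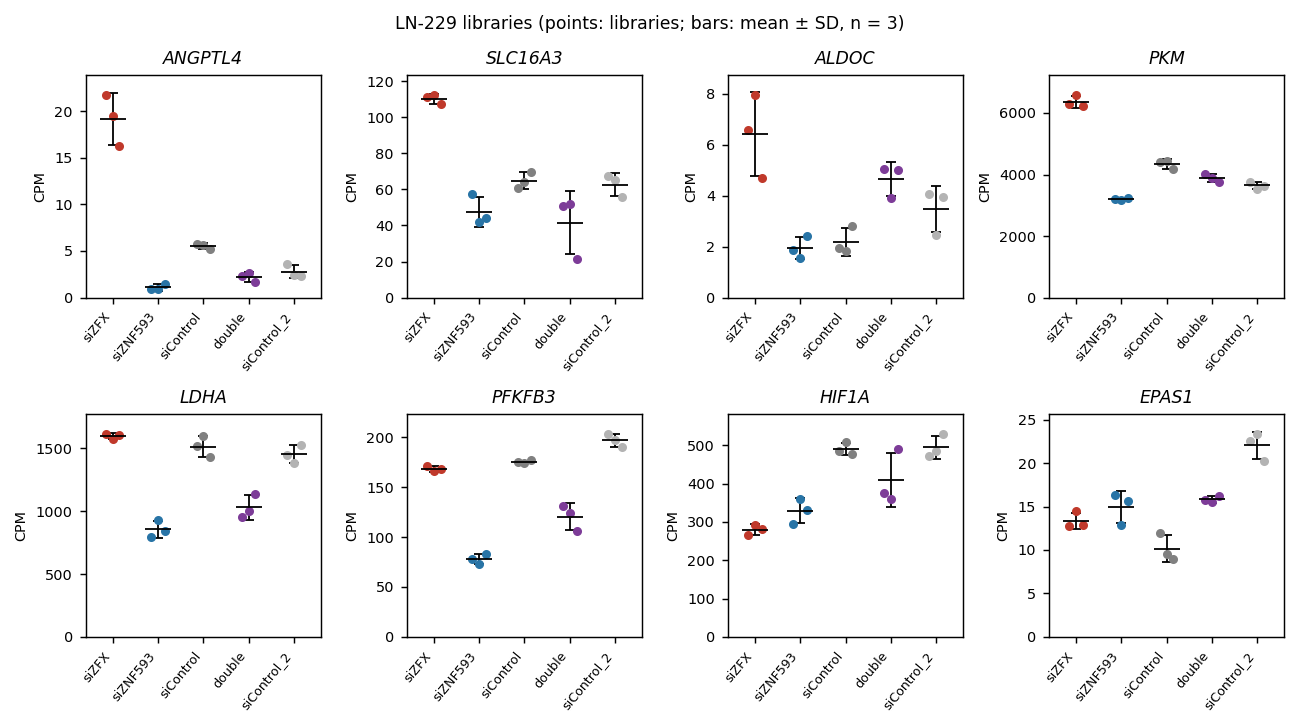
CPM of 8 members in the LN-229 libraries, with points for libraries and bars for the mean ± SD of 3; the axes start at 0 and differ between panels. ANGPTL4 averaged 19.1 CPM with siZFX and 1.09 CPM with siZNF593, against 5.53 CPM in siControl, and SLC16A3 of the double knockdown had 1 library at 21.4 CPM beside 50.9 and 52.1 CPM.

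The single knockdowns share their control libraries, so their changes are not independent, and the direct comparison of siZFX with siZNF593 removes the control. In it 29 of 45 members passed, 20 higher and 9 lower with siZFX, which is 64.4% of them beside 40.5% of all tested genes (19.8% higher and 20.7% lower). The members' median was 0.19, beside -0.03 for all genes. ANGPTL4 differed by log2 4.14 (SE 0.24), PFKFB3 by 1.11 (SE 0.08), PKM by 0.99 (SE 0.05) and LDHA by 0.90 (SE 0.07), each with an adjusted p of 7.87e-10 or less. ALDOC differed by 1.73 (SE 0.27), or 1.57 from both stranded columns, and SLC16A3 by 1.21 (SE 0.26). All 4 transporters passed, of which SLC16A1 alone was lower with siZFX (log2 -0.62, SE 0.10), as were PFKFB4 (-0.91, SE 0.10) and ENO2 (-0.78, SE 0.09). SLC2A1 (log2 0.30) held its call only without replicate 1 of siZFX among the 6 fits that left out a library of these groups. DDIT4, an inhibitor of mTORC1 induced by stress, had 69.8, 62.8 and 64.8 CPM with siZFX and 41.3, 30.4 and 33.8 CPM with siZNF593. These did not overlap (log2 0.90, SE 0.30, adjusted p = 0.0348, and 0.88 with an adjusted p of 0.000468 from both stranded columns). The DDIT4 call was lost without any 1 of the siZFX libraries and without replicate 2 or 3 of siZNF593. It held without replicate 1 of siZNF593 and without replicate 3 of the double knockdown, where the SE was 0.09.

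Of the 4 members called higher with siZFX and lower with siZNF593, 3 are enzymes of glycolysis: ENO1, PFKP and PKM. PFKP lost its call with siZFX in most left-out fits, and with siZNF593 it averaged between the control sets. ENO1 lost its call with siZNF593 without replicate 2 of siControl. The remaining member of the 4 is ANGPTL4, which was listed with this pattern known. Of the 46 members 17 are glycolytic enzymes, and the share of all tested genes with these opposite calls was not counted. PFKFB4 alone was lower with siZFX and higher with siZNF593. By mean log2(CPM + 0.5) over the 5 LN-229 groups, the members most like ANGPTL4 were PKM (r = 0.98), ENO1 (r = 0.94) and CA9 (r = 0.93), as a description of 5 points with a common set of libraries. CA9 was at most 0.253 CPM in these groups.

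The 2 control sets themselves differed for 11 of 45 members, 6 higher and 5 lower in siControl_2 than in siControl, which is 24.4% of them beside 10.3% of all tested genes (5.43% higher and 4.88% lower). The members' median was 0.04, beside 0.00 for all genes. EPAS1 had 22.5, 23.3 and 20.3 CPM in siControl_2, against 11.97, 9.56 and 8.97 CPM in siControl (log2 1.11, SE 0.13, adjusted p = 1.89e-06). ANGPTL4 was 1.99-fold lower in siControl_2 (log2 -0.99, SE 0.22, adjusted p = 0.00357). SLC2A1 (log2 -0.77, SE 0.11) and PFKP (-0.51, SE 0.07) were lower and NDRG1 (0.56, SE 0.07) was higher. PFKFB4, PKM, VHL, EGLN1, BHLHE40 and PFKL differed by 0.24 to 0.31 in size. The count was 6 without replicate 3 of siControl, 7 without replicate 3 of siControl_2 and 19 without replicate 3 of the double knockdown. Over all tested genes these fits called 616 higher and 588 lower, 676 and 599, and 1665 and 1838. The fit with all libraries called 961 and 863. From both stranded columns, ALDOC (log2 0.80), DDIT4 (0.56) and ANKRD37 (-0.54) passed as well. The calls of the double knockdown that depend on the control set are named with it. The single knockdowns were tested against siControl only. Among their called members, EPAS1 with either siRNA, BHLHE40 with siZFX, and SLC2A1 and PFKP with siZNF593 averaged between the 2 control sets.

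With the double knockdown, 24 of 45 members passed against siControl_2, 7 higher and 17 lower, which is 53.3% of them beside 38.2% of all tested genes (17.6% higher and 20.6% lower). The median over the members was -0.17, beside 0.01 for all genes. Against siControl the count was 30, 10 higher and 20 lower, beside 3315 higher and 3884 lower of all 17684 tested genes. In both counts were 20 members, among them EPAS1, which fell against siControl_2 and rose against siControl. Against siControl ADM (log2 0.14), GAPDH (-0.07), PDK1 (-0.25) and HK1 (0.0008) did not pass. NDRG1 (log2 0.44), ALDOC (1.0986) and PGK1 (0.23) passed as higher there, and SLC2A1 (-0.92), PFKP (-0.44), SLC16A1 (-0.38), TPI1 (-0.23), PKM (-0.16), ANGPTL4 and LDHB (-0.94, counted with doubt) as lower. With upper-quartile scaling the split against siControl_2 was 11 higher and 13 lower. Over all tested genes that scaling gave 3805 higher and 3134 lower, beside 3117 and 3636 with TMM.

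DDIT4 had 35.1, 33.9 and 11.8 CPM with the double knockdown, against 100.1, 82.3 and 81.2 CPM in siControl_2. All 3 libraries were below the controls, replicate 3 by the most (log2 -1.71, SE 0.31, adjusted p = 0.00107). Without that replicate the DDIT4 change was -1.34, from both stranded columns it was -1.48, and against siControl it was -0.97. PFKL had 60.6, 54.5 and 43.6 CPM with the double knockdown, against 118, 117 and 112 CPM in siControl_2 (log2 -1.13, SE 0.09, adjusted p = 1.55e-09). EGLN1 had 67.4, 70.0 and 72.5 CPM with the double knockdown, against 132, 128 and 139 CPM in siControl_2 (log2 -0.92, SE 0.07, adjusted p = 6.21e-10). Neither overlapped its control. PFKFB3 (log2 -0.71, SE 0.07), VEGFA (-0.67, SE 0.11), SLC2A3 (-0.54, SE 0.08), LDHA (-0.50, SE 0.07), VHL (-0.46, SE 0.07), GPI (-0.42, SE 0.08) and PDK1 (-0.41, SE 0.13) fell as well. BNIP3, PGAM1, ENO1, HK1, GAPDH and HIF1A fell by 0.17 to 0.33 on the log2 scale.

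The members that rose with the double knockdown were PFKFB2 (log2 0.69, SE 0.11), ENO2 (0.49, SE 0.09), PFKM (0.46, SE 0.07), ADM (0.43, SE 0.10, and 0.14 without a call against siControl), ARNT (0.40, SE 0.08), BNIP3L (0.31, SE 0.09) and KDM3A (0.29, SE 0.08). VEGFA had 26.6, 25.7 and 21.6 CPM with the double knockdown, below the 36.8, 40.3 and 40.3 CPM of siControl_2 and below every library of siZFX, siZNF593 and siControl. SLC16A3 did not pass (log2 -0.60, SE 0.26, adjusted p = 0.0986), and without replicate 3 its change was -0.28 (SE 0.09, adjusted p = 0.0171). HIF1A was 490 CPM in replicate 3 and 375 and 361 CPM in replicates 1 and 2, against 471, 486 and 529 CPM in siControl_2. It overlapped the control through that replicate, and its change was -0.28 with it (SE 0.09, adjusted p = 0.0242) and -0.42 without it (SE 0.07). Its call was lost without replicate 1 (-0.19) or 2 (-0.17) of the double knockdown or replicate 3 of siControl_2 (-0.21). EPAS1 fell against siControl_2 (log2 -0.48, SE 0.12, adjusted p = 0.00397) and rose against siControl (log2 0.64, SE 0.13, adjusted p = 0.000323), so its direction was set by the control. Without replicate 1 of siControl_2 the calls of HK1, GAPDH (log2 -0.09) and ENO1 (-0.13) were lost, and without its replicate 3 those of HK1, GAPDH and PDK1. Without replicate 2 of the double knockdown those of HK1, GAPDH and PDK1 were lost, without its replicate 1 that of GAPDH, and without its replicate 3 those of HK1 and ENO1. The GAPDH change from both stranded columns was -0.27.

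A further test asked whether the double knockdown differed from the sum of the 2 single changes on the log2 scale. It passed for 7 of 45 members, 3 above and 4 below the sum, which is 15.6% of them beside 5.65% of all tested genes (3.85% above and 1.81% below). The members' median was -0.10, beside -0.01 for all genes. Of the 7, 4 are HIF regulators. HIF1A summed to -1.38 over the single knockdowns and changed by -0.28 in the double knockdown, so it was 1.104 above the sum (SE 0.19, adjusted p = 0.000771), and 1.12 above it with siControl as the control of all. ADM was 0.84 above the sum (SE 0.19) and PFKFB3 0.52 above it (SE 0.15). EPAS1 was 1.42 below the sum (SE 0.26, adjusted p = 0.00122) with siControl_2, and 0.31 below it with siControl (adjusted p = 0.29), which ends that call. PFKFB2 (-0.76, SE 0.22), VHL (-0.60, SE 0.13) and ARNT (-0.57, SE 0.16) were below the sum. Calls in this test rested on few libraries: the count ran from 3 without replicate 3 of siControl to 11 without replicate 3 of the double knockdown, and was 12 with siControl as the control of all. Over all tested genes the same fits called 501 above and 156 below, 1334 and 713, and 1607 and 1056. The test with all libraries and siControl_2 called 680 and 320. The members' count was 4 without replicate 1 or 2 of siControl, replicate 2 of siZFX or replicate 3 of siControl_2. Calls over all genes were fewer in those fits as well. From both stranded columns DDIT4 was also called, 1.18 below the sum. ZFX stood higher in the double knockdown than in the siZFX libraries, as given above, and the part of that in these differences was not tested.

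**Figure D3:**
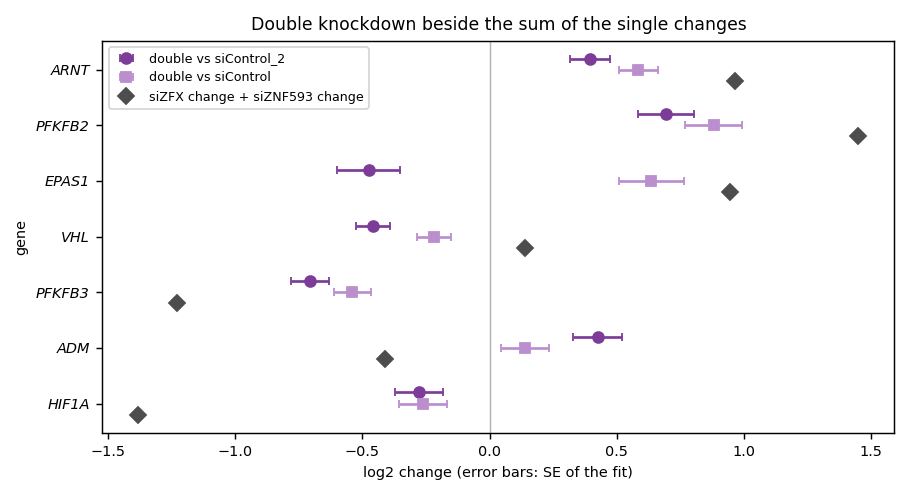
Log2 change of the 7 members called in the test against the sum: the double knockdown against siControl_2 (circles) and against siControl (squares), each with its SE, and the sum of the siZFX and siZNF593 changes (diamonds, drawn without an error). HIF1A lies at -0.28 and -0.26 beside a sum of -1.38, and EPAS1 at -0.48 against siControl_2 and 0.64 against siControl.

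In DKO cells, 15 of 45 members passed with wtZFX, 5 higher and 10 lower, which is 33.3% of them beside 42.3% of all 19376 tested genes (23.2% higher and 19.2% lower). With ZFX12_13 14 passed, 7 in each direction, which is 31.1% beside 36.6% of all tested genes (20.9% higher and 15.7% lower). These shares are below those of all genes. The medians were -0.03 in both comparisons, beside -0.02 and -0.01 for all genes. Of the 10 members lower with wtZFX, 4 lost their calls in 3 or more of 6 left-out fits and fell by 0.14 to 0.19 on the log2 scale: P4HA1, BNIP3L, PFKFB3 and BHLHE40. Each of these 4 lost it without replicate 1 of wtZFX and without replicate 3 of pCMV6, as did HK2. Without replicate 1 of wtZFX BHLHE40 was at -0.11. With RLE scaling the split for wtZFX was 6 higher and 7 lower, beside 4582 higher and 3531 lower of all tested genes. The 2 constructs share the pCMV6 libraries, so their changes are given side by side.

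EPAS1 changed the most with wtZFX. It had 72.8, 63.9 and 72.6 CPM with wtZFX and 38.6, 43.8 and 43.3 CPM with ZFX12_13, against 20.0, 21.3 and 16.9 CPM with pCMV6. The 3 groups did not overlap. EPAS1 rose 3.59-fold with wtZFX (log2 1.84, SE 0.08, adjusted p = 6.25e-15) and 2.15-fold with ZFX12_13 (log2 1.11, SE 0.08, adjusted p = 1.33e-10), and it was lower with ZFX12_13 than with wtZFX (log2 -0.74, SE 0.08, adjusted p = 1.05e-07). The other HIF regulators moved little. ARNT fell by 0.18 with wtZFX (SE 0.05) and by 0.25 with ZFX12_13 (SE 0.05) on the log2 scale, and HIF1A fell with ZFX12_13 (log2 -0.17, SE 0.05), though not without replicate 1 or 3 of pCMV6, and was at -0.05 with wtZFX. VHL, EGLN1 and EGLN3 passed with neither.

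SLC16A3 had the reverse order of the constructs. It had 4.32, 3.74 and 4.35 CPM with wtZFX and 8.80, 7.56 and 7.59 CPM with ZFX12_13, against 3.26, 2.49 and 2.37 CPM with pCMV6. The groups did not overlap, on levels far below those of LN-229. It rose with wtZFX (log2 0.61, SE 0.16, adjusted p = 0.00431), rose more with ZFX12_13 (log2 1.55, SE 0.15, adjusted p = 1.72e-08), and differed between them by log2 0.94 (SE 0.14, adjusted p = 3.09e-05). HK1, the hexokinase of most tissues, had 293.5, 299.7 and 298 CPM with wtZFX and 284, 282 and 284 CPM with ZFX12_13, against 205, 204 and 207 CPM with pCMV6. It rose by 0.53 (SE 0.04) and 0.46 (SE 0.04) on the log2 scale. P4HA2, a collagen prolyl hydroxylase, rose by 0.32 with wtZFX and 0.33 with ZFX12_13 (SE 0.06 each), and VEGFA by 0.19 and 0.18 (SE 0.05 each), and VEGFA lost its call with ZFX12_13 without replicate 1 or 2 of pCMV6. GPI and PFKL rose with ZFX12_13 (log2 0.27, SE 0.05, and 0.15, SE 0.05), and PFKL lost its call without replicate 1 or 2 of pCMV6 and without replicate 2 or 3 of ZFX12_13.

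PFKFB2 had 46.3, 43.0 and 46.2 CPM with wtZFX and 40.1, 47.2 and 44.4 CPM with ZFX12_13, against 60.1, 59.3 and 61.4 CPM with pCMV6. It fell with both constructs, by 0.41 and 0.46 on the log2 scale (SE 0.06 each). PFKM (log2 -0.29 with wtZFX and -0.19 with ZFX12_13), KDM3A (-0.18 and -0.17) and BNIP3L (-0.17 and -0.16) also fell with both. With ZFX12_13, PFKM lost its call without replicate 2 of pCMV6, KDM3A without its replicate 3, and BNIP3L without any 1 of the pCMV6 libraries or replicate 3 of ZFX12_13. ANKRD37, an ankyrin repeat protein, fell with wtZFX (log2 -0.48, SE 0.13, and -0.29 from both stranded columns), as did HK2 (-0.19, SE 0.06). CA12, another surface carbonic anhydrase, fell with ZFX12_13 (log2 -0.52, SE 0.14). ANGPTL4 had 1.26 ± 0.366 CPM with wtZFX and 1.097 ± 0.138 CPM with ZFX12_13, against 1.16 ± 0.149 CPM with pCMV6 (SD, n = 3 each), and it passed with neither (log2 0.11 and -0.08, adjusted p = 0.783 and 0.874). GAPDH, PGK1, PGAM1, ENO1, PKM and LDHA passed with neither construct, and their changes lay between -0.03 and 0.05. TPI1 passed with neither as well, at 908.8 CPM with wtZFX and 883.6 CPM with ZFX12_13, against 844.8 CPM with pCMV6. Its wtZFX libraries all lay above its pCMV6 libraries.

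Between the constructs, 3 of 45 members passed, which is 6.67% of them beside 20.4% of all tested genes: SLC16A3 and GPI (log2 0.16, SE 0.05) were higher and EPAS1 was lower with ZFX12_13 (background 9.73% higher and 10.6% lower). The medians were 0.00 for the members and 0.01 for all genes. Without replicate 1 of ZFX12_13 the count was 11, beside 2155 higher and 2385 lower over all tested genes. With all libraries those were 1885 and 2059. GPI lost its call without replicate 1 or 3 of wtZFX.

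**Figure D4:**
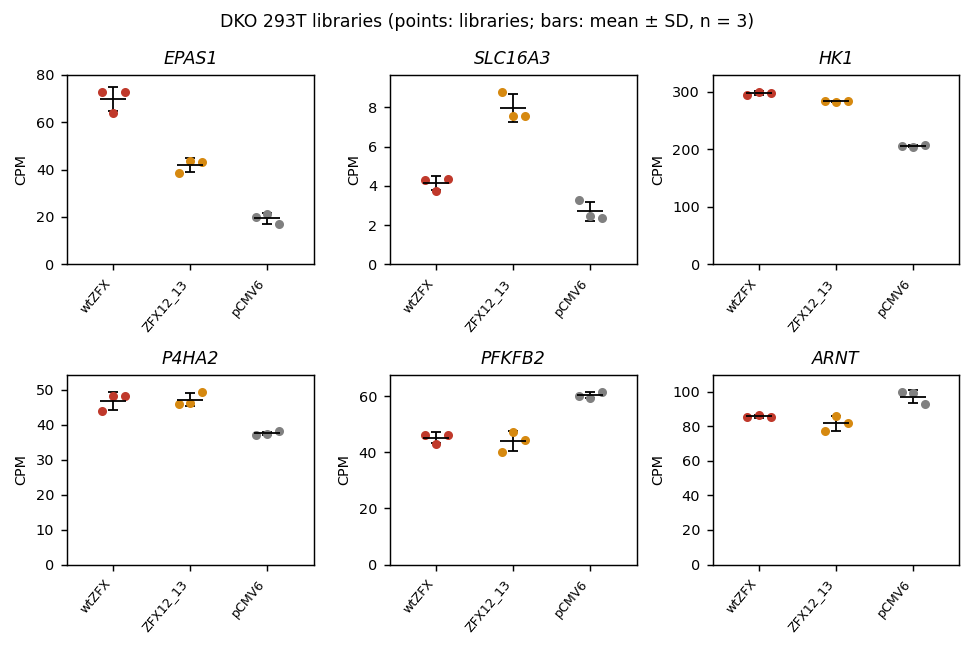
CPM of 6 members in DKO libraries with wtZFX, ZFX12_13 and the empty vector pCMV6, with points for libraries and bars for the mean ± SD of 3; the axes start at 0 and differ between panels. EPAS1 averaged 69.8 CPM with wtZFX, 41.9 CPM with ZFX12_13 and 19.4 CPM with pCMV6, and SLC16A3 4.14, 7.98 and 2.71 CPM.

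The loss of ZFX in LN-229 and its return to DKO cells can be set side by side, since they share no libraries, though the lines and the direction of the change in ZFX differ. Of the 16 members higher with siZFX, 7 were among the 10 lower with wtZFX: ARNT, BHLHE40, BNIP3L, HK2, KDM3A, PFKFB2 and PFKM. This is 43.8% of the 16, beside 42.9% for all genes higher with siZFX among the 15973 tested in both lines, and 70.0% of the 10, beside 28.7% for all genes lower with wtZFX. The second pair of shares also depends on how many were higher with siZFX at all: 16 of 45 members, beside 2313 of the 15973 genes. EPAS1 and SLC16A3 were higher in both comparisons. For EPAS1 with siZFX that holds against siControl only, since its 13.36 CPM was below the 22.03 CPM of siControl_2. BHLHE40 with siZFX likewise averaged above siControl only. None of the 8 members lower with siZFX passed with wtZFX in either direction, beside 59.1% of all genes lower with siZFX. PFKFB2 had the largest change of these 7 in both comparisons, at log2 0.75 with siZFX and -0.41 with wtZFX.

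Genes of neighbouring pathways, from lists written with earlier results of these data in view, are given by count, beside the shares of all tested genes given above (30.9% with siZFX, 26.8% with siZNF593 and 42.3% with wtZFX). Of 26 other HIF targets, 13 (50%) passed with siZFX (7 higher and 6 lower, median 0.17) and 8 (30.8%) with siZNF593 (3 higher and 5 lower, median -0.02). STC2, a secreted glycoprotein, rose with siZFX (log2 1.12, SE 0.11). It was also lower in siControl_2 than in siControl (log2 -1.98, SE 0.12). The collagen lysyl hydroxylase PLOD1 had 52.4 ± 1.63 CPM with siZNF593, against 252 ± 9.48 CPM in siControl (log2 -2.27, SE 0.09, adjusted p = 1.74e-14), and it fell with the double knockdown (log2 -2.18, SE 0.09). Of 11 tested genes among 12 other HIF regulators, 3 (27.3%) passed with siZFX, a share near that of all genes. ARNT2, the paralog of ARNT, had 9.13 ± 0.373 CPM with siZFX and 60.4 ± 1.68 CPM with siZNF593, against 41.3 ± 0.550 CPM in siControl (log2 -2.18, SE 0.08, and 0.55, SE 0.08). HIF1AN, the asparagine hydroxylase that blocks HIF activity, rose with siZFX (log2 0.58, SE 0.07).

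Of 11 genes of the pentose phosphate and side branches, 3 (27.3%) passed with siZFX (2 higher and 1 lower) and 6 (54.5%) with siZNF593 (2 higher and 4 lower). Transketolase (TKT), which links that pathway to glycolysis, had 1743 ± 67.5 CPM with siZFX and 421 ± 18.5 CPM with siZNF593, against 1208 ± 16.6 CPM in siControl (log2 0.53, SE 0.07, and -1.52, SE 0.07). RPIA, the ribose phosphate isomerase, fell with siZFX (log2 -1.15, SE 0.11). Of 12 genes of pyruvate entry into mitochondria, 4 (33.3%) passed with siZFX, 3 (25.0%) with siZNF593 and 6 (50%) with wtZFX, shares near those of all genes. The pyruvate carrier subunit MPC2 fell with siZFX (log2 -0.63, SE 0.13) and rose with wtZFX (log2 0.39, SE 0.11). PDK4, a pyruvate dehydrogenase kinase that PPAR proteins turn on, fell with siZNF593 (log2 -0.70, SE 0.22) and with the double knockdown (log2 -1.64, SE 0.22), on levels of 2.17 ± 0.307 CPM with the double knockdown against 6.77 ± 0.192 CPM in siControl_2. Of 10 PPAR targets 6 were tested in LN-229 and 4 (66.7%) passed with siZFX (3 higher and 1 lower). CPT1A, the gate of fatty acid oxidation, rose in DKO cells with wtZFX (log2 0.86, SE 0.05) and ZFX12_13 (log2 1.003, SE 0.05).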

How the data were processed

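The deposited files hold raw read counts per gene in the layout of STAR's gene counts, per the file headers. The submitters' processing notes name STAR, HTSeq, DESeq2 and GRCh38 without versions, and the labels' protocols name total RNA and the NEBNext Ultra II kit. The unstranded column was used, and the sum of the stranded columns was an alternative. Members were matched to GENCODE 29, and they and the other gene lists were chosen with earlier results of these data known. LN-229 and DKO libraries were modelled separately in edgeR 4.0.16 and R 4.3.3 (filterByExpr, TMM factors, robust quasi-likelihood test), after tests on simulated data. Genes with a Benjamini-Hochberg adjusted p under 0.05 over all tested genes were called. SE was derived from the log2 change and its F statistic. Named genes were the targeted factor, ANGPTL4, the called members of largest change in each role group and up to 3 called genes of each other list, with members that did not pass named where their group is described. Libraries held 21249722 to 37455958 reads, a depth that leaves members near 1 CPM on few counts. Alternatives were DESeq2 1.42.0, RLE and upper-quartile factors, no filter, a replicate block, fits of the compared groups only, other controls for the double knockdown and each library left out. The alternatives without replicate 3 of the double knockdown in comparisons that do not use it, and siControl in the test against the sum, were chosen after seeing the data. Replicate numbers were not taken as pairs, since libraries of the same number did not deviate together. Promoters are RefSeq's on GRCh38.p14. Some genes of the other lists are counted in them but not reported here by name.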

Additional observations from a re-analysis of the deposited data

Results flagged for a closer look

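The members whose change in the double knockdown differed from the sum of the changes with siZFX and with siZNF593 are listed here because the test of that difference passed (edgeR, adjusted over all tested genes). On the log2 scale the difference was 1.104 for HIF1A (SE 0.19, adjusted p = 0.000771), 0.84 for ADM (SE 0.19, adjusted p = 0.00843) and 0.52 for PFKFB3 (SE 0.15, adjusted p = 0.0361), which lay above their sums. It was -1.42 for EPAS1 (SE 0.26, adjusted p = 0.00122), -0.76 for PFKFB2 (SE 0.22, adjusted p = 0.0484), -0.60 for VHL (SE 0.13, adjusted p = 0.0078) and -0.57 for ARNT (SE 0.16, adjusted p = 0.0308), which lay below theirs. The calls of HIF1A, ADM and EPAS1 held in all 15 fits that left out 1 library. Those of PFKFB2, ARNT, PFKFB3 and VHL were lost in 12, 11, 5 and 1 of them. The double knockdown here is set against siControl_2 and the single knockdowns against siControl, so a difference between the control sets enters this test. With siControl throughout, EPAS1 was at -0.31 and no longer passed, and the other 6 kept their calls.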

How the results depend on the processing

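Against siControl in place of siControl_2, EPAS1 with the double knockdown reversed to 0.64, and to 0.62 when replicate 3 of the double knockdown was also left out. Against all 6 controls it was 0.0805. HK1 reversed to 0.0008 against siControl and to 0.0435 without replicate 3 as well, values near 0. The number of members that differed between the control sets was 11, and 18 when only those groups were fitted. With 1 library left out it ran from 6 to 19. The test against the sum called 7 members, 3 to 11 with 1 library left out, and 12 with siControl throughout. The comparison of ZFX12_13 with wtZFX called 3 members, and 2 to 11 with 1 library left out. In the fits at the ends of these ranges, the calls over all tested genes moved the same way. The counts for the other 6 comparisons stayed within 1.5 times under every alternative run. Without the filter the control sets split into 4 higher and 7 lower. The replicate block gave 24 members for siZFX, 18 for siZNF593, 25 for the double knockdown, 30 for siZFX against siZNF593, 11 for the control sets, 7 against the sum, 15 for wtZFX, 17 for ZFX12_13 and 3 between the constructs. Same-numbered libraries correlated at -0.159 to 0.227 in LN-229 and -0.0873 to 0.0628 in DKO cells, so the numbers were not taken as pairs. Depth limits ANGPTL4 in siZNF593 and DKO cells, EGLN3 and ALDOC in LN-229 and SLC16A3 in DKO cells, which are near or under 10 CPM.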
